A study of Mus musculus with 76 samples.

Results

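The placental prolactin family genes followed here are Prl3d1, Prl3d2, Prl3d3, Prl3b1, Prl2c2 and Prl4a1, 6 genes chosen by their symbols out of 48321 in the deposited count tables. They were chosen with earlier results of these data known. Mouse chromosome 13 holds a large cluster of genes related to pituitary prolactin, most of which encode hormones secreted by trophoblast or decidua. Prl3d1 encodes placental lactogen I, which trophoblast giant cells secrete soon after implantation, and Prl3d2 and Prl3d3 are close copies of it. Prl3b1 encodes placental lactogen II, which takes over later in pregnancy. Both lactogens bind the prolactin receptor and signal through the kinase JAK2 and the transcription factor STAT5, whereas Prl2c2 encodes proliferin, an angiogenic factor of giant cells, and Prl4a1 encodes a hormone that acts on uterine natural killer cells.

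The study asked what the loss of maternal Ezhip, an inhibitor of the histone methyltransferase complex PRC2, does to early mouse development. Each library came from 1 oocyte, 2-cell embryo, blastocyst or embryonic day 6.5 (E6.5) extraembryonic ectoderm (ExE), the trophoblast tissue between the embryo proper and the ectoplacental cone. Libraries were labelled wild type (WT) or Ezhip matKO, taken here as maternal knockout. There were 3 WT and 4 matKO oocytes, all labelled female, 11 WT (5 female) and 12 matKO (6 female) 2-cell embryos, 14 WT (6 female) and 14 matKO (7 female) blastocysts, and 10 WT (6 female) and 8 matKO (5 female) ExE samples. The labels do not give the strain, the deleted part of the gene, the fathers' genotype, litters or how the ExE was separated from its neighbours, so p-values measure the spread between these samples, which may be partly technical.

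The members lie on chromosome 13 of mm10. Prl3d1 (27094212 to 27100255), Prl3d2 (27121701 to 27127546), Prl3d3 (27156790 to 27162590) and Prl3b1 (27242430 to 27249679) stand in a row on the plus strand. The Prl3d copies span 68.4 kb. Prl4a1 (28016212 to 28023548, plus strand) lies 767 kb beyond Prl3b1, and Prl2c2 (12996132 to 13005383, minus strand) lies at some distance from the rest of the cluster. Each has 5 exon intervals and an exonic length between 835 and 875 bases, and no other annotated gene overlaps those exons.

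Sequence around the start of the gene is shown for the Prl3d copies, which moved together in ExE, and for their neighbour Prl3b1, which was found at another stage. The 250 bases before RefSeq's start (GRCm38.p6, plus strand) are given, and 5 of the 6 members had an entry. RefSeq's start lies 23 bases before the start in the deposited tables for Prl3d1, 6 bases before it for Prl3d2, 4 bases after it for Prl3d3 and at the same base for Prl3b1. Capitals mark matches on either strand to the AP-1 motif TGANTCA and to the GATA motif, searched as AGATAA and with a final g as AGATAG, and with an initial t as TGATAA and with both changes as TGATAG. None of the matches overlap.
Prl3d1, chr13:27093939-27094188: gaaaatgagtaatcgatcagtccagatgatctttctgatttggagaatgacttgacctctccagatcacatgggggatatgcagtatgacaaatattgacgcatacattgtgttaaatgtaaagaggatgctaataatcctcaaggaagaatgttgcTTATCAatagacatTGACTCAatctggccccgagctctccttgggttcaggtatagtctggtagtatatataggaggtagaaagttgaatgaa
Prl3d2, chr13:27121445-27121694: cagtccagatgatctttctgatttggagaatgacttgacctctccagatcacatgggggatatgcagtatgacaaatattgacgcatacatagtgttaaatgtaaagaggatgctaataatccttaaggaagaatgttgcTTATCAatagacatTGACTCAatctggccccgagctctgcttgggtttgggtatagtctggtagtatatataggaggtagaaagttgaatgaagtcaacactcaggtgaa
Prl3d3, chr13:27156544-27156793: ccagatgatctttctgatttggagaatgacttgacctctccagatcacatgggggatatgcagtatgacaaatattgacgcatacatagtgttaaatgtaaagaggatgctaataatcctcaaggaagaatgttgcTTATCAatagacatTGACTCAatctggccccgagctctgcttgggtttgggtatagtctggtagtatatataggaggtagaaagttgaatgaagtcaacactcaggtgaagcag
Prl3b1, chr13:27242180-27242429: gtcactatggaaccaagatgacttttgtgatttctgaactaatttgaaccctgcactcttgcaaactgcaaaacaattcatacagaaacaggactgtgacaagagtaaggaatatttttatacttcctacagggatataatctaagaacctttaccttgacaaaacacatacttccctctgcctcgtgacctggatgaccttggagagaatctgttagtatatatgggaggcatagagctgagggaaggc
Each Prl3d copy held 1 AP-1 match (TGACTCA) and 1 match to the GATA motif, which lies on the minus strand and so reads TTATCA here. Counted back from RefSeq's start, the AP-1 match began at base 79 in Prl3d1, 96 in Prl3d2 and 100 in Prl3d3, and the GATA match at base 93, 110 and 114, differences that follow from where RefSeq places the starts. GATA2, GATA3 and AP-1 are known regulators of the placental lactogen I promoter. Of 32851 promoter windows of this length, 6.75% held the AP-1 motif, 26.5% a GATA motif and 2.33% both. The Prl3b1 window held neither, which says only that these letters are not in it. Over the bases that align, gaps and overhangs left out, Prl3d1 was identical to Prl3d2 at 97.9% of 233 bases and to Prl3d3 at 98.3% of 229, Prl3d2 to Prl3d3 at 99.6% of 246, and Prl3b1 to the Prl3d copies at 63.5% to 64.8%.

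Values are CPM, counts of a gene over the library total on the usual scale, and a division by gene length (CPM per kb) is used wherever genes are compared. Libraries held 5.27 to 26.5 megacounts (M) in oocytes, 1.05 to 14.1 M in 2-cell embryos, 4.06 to 31.99 M in blastocysts and 2.74 to 26.7 M in ExE. Ezhip, listed as AU022751, ranged from 943 to 1463 CPM in WT and from 0.113 to 0.590 CPM in matKO oocytes, and from 31.3 to 347 CPM in WT and 0 to 19.1 CPM in matKO 2-cell embryos. Later it was low in both genotypes, at 0 to 41.5 CPM in WT and 0 to 1.64 CPM in matKO blastocysts. In ExE it did not exceed 1.00 CPM in WT or 0.665 CPM in matKO, so there it does not check the labels. Some markers, picked after their values were seen, were present where the labels place them: Zp3, a zona protein gene, was at 1990 CPM or more in every oocyte, Krt8, a trophectoderm keratin, at 213 CPM or more in every blastocyst, and Elf5, a trophoblast stem cell factor, at 22.5 CPM or more in every ExE sample. Zscan4d stood at 17.6 to 37.9 CPM in oocytes and 7.29 to 188 CPM in 2-cell embryos. Bmp4 stood at 0 to 62.2 CPM in blastocysts and 2.44 to 107 CPM in ExE. Neither separated those stages. Visceral and primitive endoderm genes summed to 3261 to 8716 CPM in WT and 3112 to 13403 CPM in matKO ExE. The purity of the ExE was not tested. Identifier prefixes divide the libraries. Every WT ExE sample carries D1042C and every matKO ExE sample D707T, and effects of the prefix and of the genotype cannot be told apart at this stage. Blastocysts of both genotypes carry D405T (10 WT, 6 matKO) or D707T (4 WT, 8 matKO).

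Prl3d1, Prl3d2 and Prl3d3 were found in ExE alone. Their counts were 0 in all 7 oocytes, 23 2-cell embryos and 28 blastocysts, which for 464 M blastocyst counts allows a level of up to 0.00647 CPM for each (3 counts, counting error only). In ExE the 3 rows summed to 56531 counts, present in 17 of 18 samples. Prl3b1 showed another distribution, with 3786 counts in 22 of 28 blastocysts, 39 counts in 1 of 23 2-cell embryos, and none in oocytes or in 213 M ExE counts (up to 0.0141 CPM). Prl2c2 was counted in 9 of 18 ExE samples (390 counts) and at no other stage. Prl4a1 was counted in 11 of 18 ExE samples (409 counts), besides 1 count in an oocyte and 3 counts in a 2-cell embryo.

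**Figure D1:**
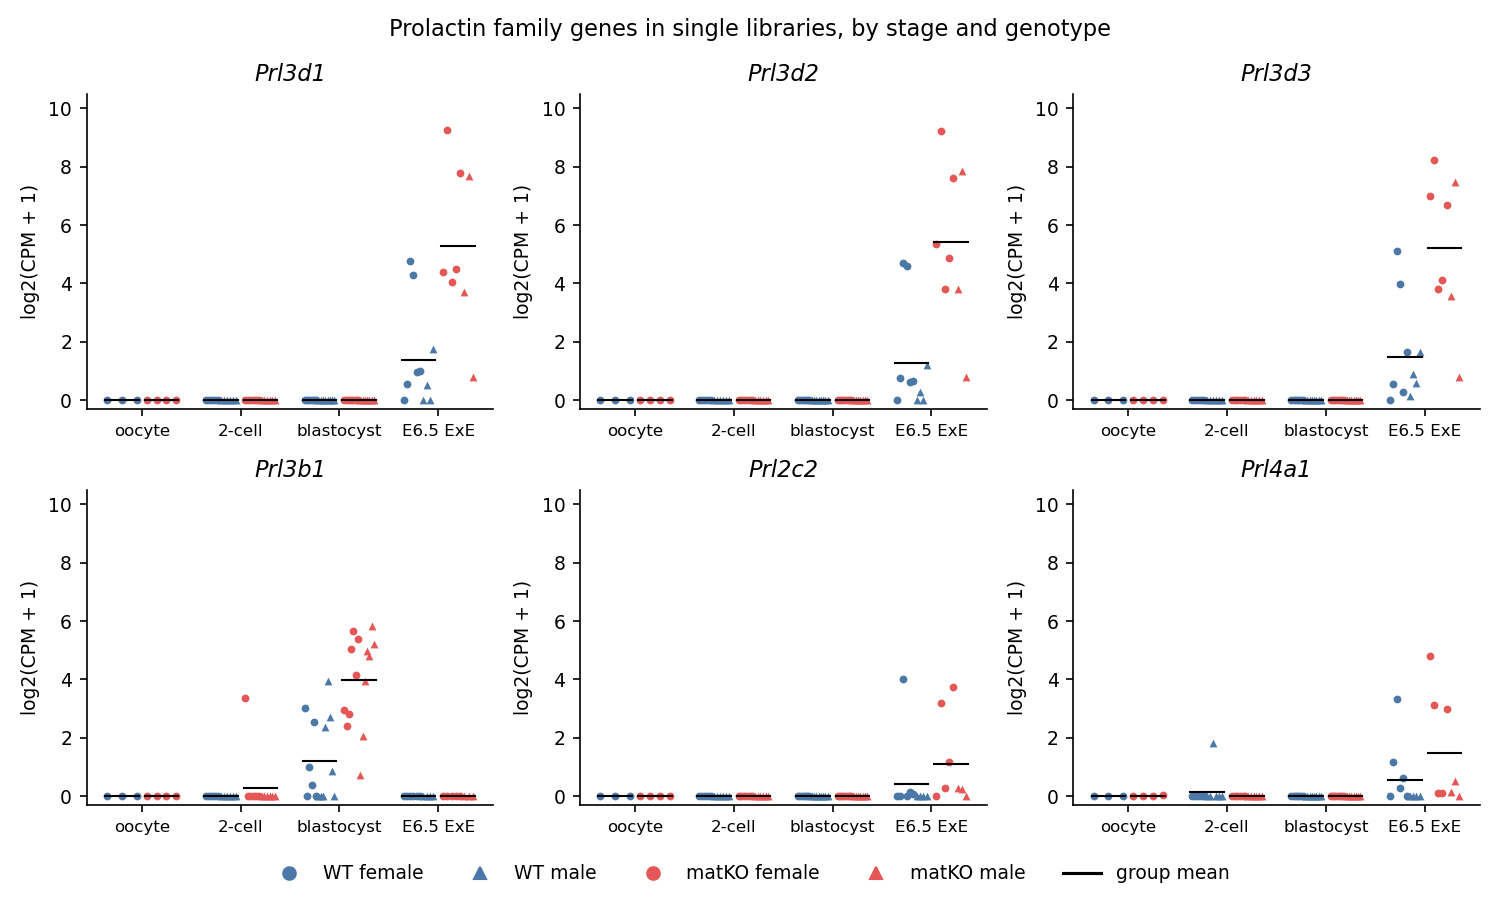
Level of each gene in every library, as log2(CPM + 1), by stage; blue is WT, red is matKO, circles are female, triangles are male and black lines are group means. The Prl3d copies are above 0 in ExE alone, while Prl3b1 is found in blastocysts and is at 0 in all 18 ExE samples.

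The placental lactogen I genes were far higher in matKO than in WT ExE. Summed over Prl3d1 to Prl3d3, WT females 1 to 6 stood at 0, 1.65, 85.2, 56.7, 1.73 and 3.78 CPM, and WT males 1 to 4 at 0.123, 1.52, 0.498 and 5.83 CPM. The matKO females 1 to 5 stood at 188, 1503, 41.6, 66.2 and 516 CPM, and the matKO males 1 to 3 at 36.02, 608 and 2.24 CPM. The groups overlap. WT females 3 and 4 reached the range of the lower matKO samples, and 4 of 10 WT samples lay above the lowest matKO sample. Of the matKO samples, females 3 and 4 and males 1 and 3 lay within the WT range. The WT mean was 15.7 CPM ± 29.9 (SD, n = 10) and the matKO mean 370 CPM ± 513 (SD, n = 8), with 7 of 8 matKO samples above the WT mean and 4 of 8 above every WT sample. The log2 fold change in the fit was 5.70 ± 1.41 (SE), or 52.0-fold (adjusted p = 0.0083, edgeR's quasi-likelihood test with Benjamini-Hochberg adjustment over all genes of the stage). The fit scales the libraries and has a sex term, which the printed CPM do not, so 52.0 is not the ratio of these means. Without the sex term the log2 fold change was 5.13. In these samples, more cells of a type and more RNA per cell cannot be told apart.

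Taken row by row, 5 of the 6 members passed the filter on low counts in ExE and 3 of these were called higher, none lower; of all 14156 genes tested, 24.9% were called, 14.1% higher and 10.7% lower in matKO. The 3 called rows are the Prl3d copies, whose transcripts are nearly identical, so they are not separate results. Prl2c2 and Prl4a1 were not called, and Prl3b1, at 0 throughout, was not tested. Prl3d1 averaged 5.04 CPM ± 9.46 in WT and 138 CPM ± 212 in matKO (log2 fold change 5.80 ± 1.37, adjusted p = 0.0067). For Prl3d2 the means were 5.19 CPM ± 10.1 and 139 CPM ± 204 (5.95 ± 1.41, adjusted p = 0.0068). Prl3d3 averaged 5.47 CPM ± 10.8 and 92.6 CPM ± 105 (5.07 ± 1.25, adjusted p = 0.0086; SD between samples after CPM, SE after fold changes). Per length, the matKO means were 163, 165 and 109 CPM per kb for Prl3d1, Prl3d2 and Prl3d3. Those of Prl4a1 and Prl2c2 were 6.14 and 3.35 CPM per kb, where the Prl2c2 level is uncertain because other genes share most of its sequence. All of these rows come from the same samples, so the spread between samples does not measure differences between genes. Such differences were not tested, and the shares of the Prl3d copies within samples are given below. Scaling by library totals alone moved the median log2 change of all genes tested from -0.07 to -0.40 and the called genes from 2000 higher and 1520 lower to 1208 higher and 3435 lower. The summed Prl3d change was 5.16 under that scaling.

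**Figure D2:**
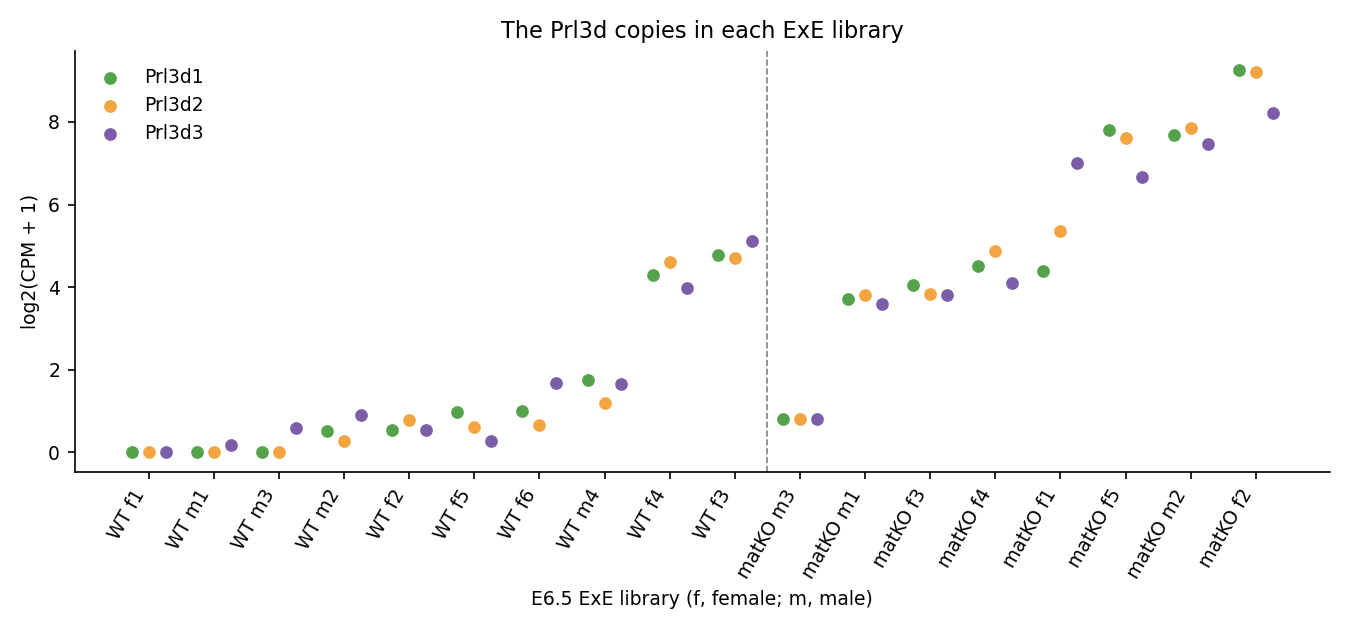
Levels of Prl3d1, Prl3d2 and Prl3d3 in each ExE sample as log2(CPM + 1), ordered by the summed level within WT (left of the dashed line) and matKO (right). The copies rise and fall together over samples, from a sum of 0 CPM in WT female 1 to 1503 CPM in matKO female 2, and matKO female 1 has more Prl3d3 than Prl3d1.

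The 3 copies each took a sizeable share of the summed counts. Over all ExE samples the rows held 22000 counts of Prl3d1, 21920 of Prl3d2 and 12611 of Prl3d3. Over the 12 ExE samples with at least 20 such counts, the median share was 33.1% for Prl3d1, 36.7% for Prl3d2 and 29.7% for Prl3d3. The share of Prl3d3 ran from 19.5% to 67.9%. It was 19.7% (Wilson 95% interval 19.3% to 20.1%) in matKO female 2, the sample with most counts (40097), where Prl3d1 took 40.7%, and 19.5% (18.1% to 21.01%) in matKO female 5, where Prl3d1 took 42.8%. It was highest in matKO female 1, at 67.9% of 514 counts (63.7% to 71.8%; intervals cover counting error only), where Prl3d1 took 10.7%. WT female 6 had the next highest share of Prl3d3, 57.8% of 64 counts (45.6% to 69.1%). The transcripts are 98.4% to 98.5% identical over their aligned bases, and between 57.1% and 68.2% of their 50-base windows occur in another copy. The sources used here do not say how reads matching several copies were counted, so levels of single copies are uncertain and the sum is the firmer value. If such reads were left out, this sum does not restore them either, and its level is then too low.

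Prl2c2, the proliferin gene, was counted at low and uneven levels in ExE. It reached 15.0 CPM in WT female 3 and was at most 0.108 CPM in the other 9 WT samples. In matKO it stood at 12.3 CPM in female 5, 8.21 CPM in female 2 and 1.25 CPM in female 4, and at 0.222 CPM or less in the other 5. The difference did not pass the test over all samples (log2 fold change 1.75 ± 1.26 SE, adjusted p = 0.32, edgeR). Without WT female 3 the fold change was 6.81 (adjusted p = 3.2e-04), so that sample alone decides the call. Of the 50-base windows of Prl2c2, 89.5% also occur in Prl2c1, Prl2c3, Prl2c5 or the predicted gene Gm7040, and summing Prl2c2, Prl2c3 and Prl2c5 gave 1.93 (adjusted p = 0.30). The sources used here do not say how reads matching several of these genes were counted. If such reads were left out, the sum does not restore them, so the level of Prl2c2 is uncertain.

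Prl4a1 shares no 50-base window with another gene. It stood at 27.04, 7.80 and 6.97 CPM in matKO females 1, 2 and 5 and at 0.434 CPM or less in the other 5 matKO samples. WT female 3 had 9.13 CPM, WT female 2 1.29 CPM, and the other 8 WT samples 0.540 CPM or less. The means were 1.12 CPM ± 2.85 (SD, n = 10) and 5.31 CPM ± 9.37 (SD, n = 8), with a log2 fold change of 2.73 ± 1.13 (SE) that missed the threshold (adjusted p = 0.080, edgeR). The call turned on the fit and on 3 samples: the adjusted p was 0.040 with edgeR's newer quasi-likelihood fit (which called 31.2% of all genes), 0.0078 without WT female 3, 0.048 without matKO female 3 and 0.047 without matKO female 4. WT female 3 was thus the WT sample with the highest levels of summed Prl3d, Prl2c2 and Prl4a1 alike, on a total of 4.93 M counts.

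Prl3b1, the placental lactogen II gene, was higher in matKO than in WT blastocysts. The WT blastocysts under D405T stood at 7.21 CPM (female 1), 1.02 CPM (female 3), 0.839 CPM (male 7) and 0.296 CPM (female 4), and the other 6 had no count. Those under D707T stood at 14.5, 5.62 and 4.14 CPM in males 5, 6 and 4 and at 4.81 CPM in female 5. Among matKO blastocysts, D405T samples had 6.68, 4.33 and 6.04 CPM in females 1 to 3 and 0.668, 3.17 and 14.5 CPM in males 1 to 3. The 8 matKO samples under D707T ran from 16.7 to 55.5 CPM, with a mean of 36.03 CPM ± 12.4 (SD).

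Over both prefixes the WT mean of Prl3b1 was 2.74 CPM ± 4.204 (SD, n = 14) and the matKO mean 23.1 CPM ± 18.2 (SD, n = 14). All 14 matKO blastocysts had counts, against 8 of 14 in WT, and 13 of 14 lay above the WT mean. With prefix and sex in the model, the log2 fold change was 2.74 ± 0.67 (SE), a 6.68-fold difference (adjusted p = 0.011, edgeR). Prl3b1 was the only member with enough counts to be tested in blastocysts, where 6.3% of 13445 genes were called, 2.75% higher and 3.55% lower in matKO (13.4% in all with edgeR's newer fit). The prefixes differ in level within each genotype, with D707T above D405T, and D707T libraries are also shallower (4.06 to 14.6 M counts against 15.0 to 31.99 M). Within D707T the log2 fold change was 2.51 (adjusted p = 0.011, edgeR), where 0.983% of all genes were called. The lowest matKO sample there had 16.7 CPM and the highest WT sample 14.5 CPM. Within D405T the fold change was 3.74 and did not pass the test (adjusted p = 0.10). The Prl3b1 transcript shares no 50-base window with another gene.

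**Figure D3:**
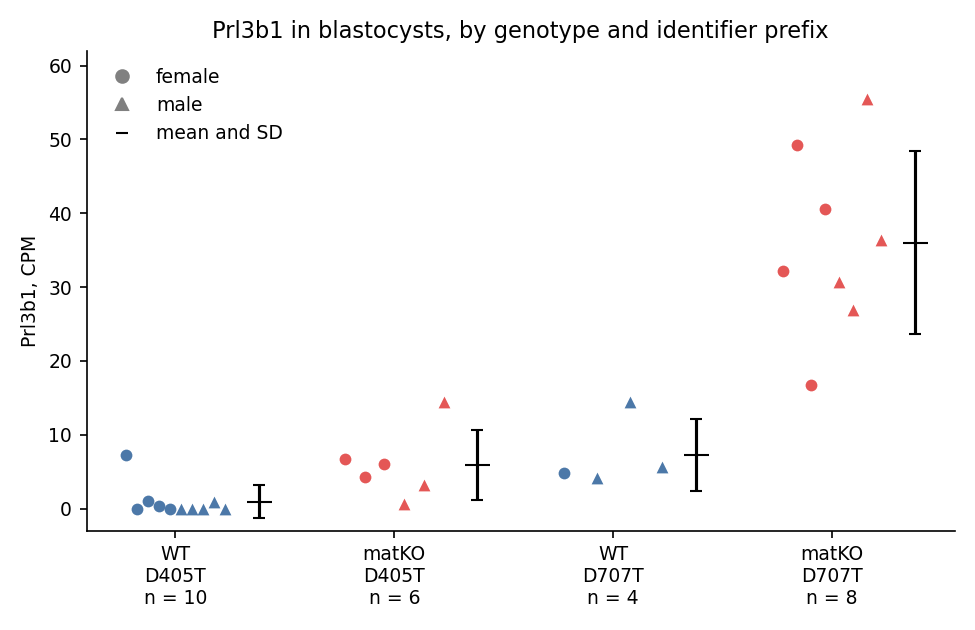
Prl3b1 in blastocysts in CPM, by genotype and identifier prefix; circles are female, triangles are male, and bars give the mean and SD. Under D707T the 8 matKO blastocysts ran from 16.7 to 55.5 CPM and the 4 WT blastocysts from 4.14 to 14.5 CPM, while the D405T groups overlap.

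Before the blastocyst stage the members were nearly absent, and none could be tested. Prl3b1 had 39 counts (9.31 CPM) in matKO 2-cell female 1 and none in the other 22 2-cell embryos. That embryo also had 12.4 CPM of Prl7b1, another gene of the cluster. Prl7b1 stood at 3.64, 4.65 and 3.44 CPM in matKO females 2, 3 and 4, at 1.32 CPM in WT female 2 and at 0.479 CPM or less in the remaining 2-cell embryos.

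Effects in each sex pointed the same way. The summed Prl3d level averaged 24.8 CPM in the 6 WT females (SD 36.9) and 463 CPM in the 5 matKO females (SD 611). Male averages were 1.99 CPM (SD 2.63, n = 4) for WT and 216 CPM (SD 341, n = 3) for matKO. The log2 fold changes were 4.76 in females (adjusted p = 0.089) and 7.32 in males (adjusted p = 0.085), neither called by edgeR's quasi-likelihood test, which called 9.69% and 5.28% of all genes. The newer fit called the female change (adjusted p = 0.042) but not the male (adjusted p = 0.054). Prl3b1 in blastocysts changed by 1.76 in females (adjusted p = 0.59, with 0.208% of genes called) and by 3.55 in males (adjusted p = 0.043, with 1.52% called). The difference between the sexes, female minus male, was -2.56 ± 2.53 (SE) for the Prl3d sum and -1.79 ± 1.31 for Prl3b1, neither of them called (adjusted p = 1.0 for each).

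Levels were then compared between blastocysts and ExE within each genotype, on mean log2(CPM + 1). Every such comparison has a stage at which the gene is at 0 in all samples, so the size of the difference is set by the pseudocount and the test restates where the gene was counted. Prl3b1 was lower in ExE by 1.21 in WT (adjusted p = 0.014, permutation test with 100000 resamples) and by 4.0 in matKO (adjusted p = 2.0e-05, exact permutation test). With pseudocounts of 0.1 and 10 in place of 1, the Prl3b1 differences were -2.78 and -0.29 in WT and -7.14 and -1.50 in matKO, all of them called. The summed Prl3d level was higher in ExE by 2.22 in WT (4.61 and 0.79 with those pseudocounts) and by 6.85 in matKO (10.1 and 3.88), again called under each. For Prl2c2 and Prl4a1 the higher level in ExE was called in matKO (adjusted p = 4.8e-04 and 8.2e-05, exact permutation tests). In WT it was called for Prl4a1 (adjusted p = 0.020, permutation test) but not for Prl2c2 (adjusted p = 0.059, permutation test). The tests were two-sided and adjusted over 14 comparisons. WT blastocysts and WT ExE have no prefix in common, whereas 8 matKO blastocysts share D707T with the matKO ExE; for these the differences passed the exact permutation test as well (p = 1.6e-04 for Prl3b1 and for summed Prl3d, the smallest it allows).

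Elsewhere in the cluster, 8 of 20 further prolactin family genes could be tested in ExE, and 4 rose and none fell in matKO, beside 14.1% of all genes called higher and 10.7% lower. Prl8a2, which encodes decidual prolactin-related protein, had a log2 fold change of 3.06 (adjusted p = 0.030, edgeR), with a WT mean of 30.7 CPM (SD 36.4) and a matKO mean of 196 CPM (SD 225). Prl8a9 rose by 4.35 (adjusted p = 0.011), from 1.15 to 16.1 CPM, with 5 of 8 matKO samples above every WT sample. Prl3c1, which lies between Prl3d3 and Prl3b1, rose by 4.12 (adjusted p = 0.012), and Prl5a1 by 3.82 (adjusted p = 0.0073), both from means under 1 CPM in WT. Counts of Prl3c1 and Prl5a1 were present in 5 and 4 of 10 WT samples and in 8 and 7 of 8 matKO samples. These 2 genes passed the filter on low counts largely through matKO, which favours a rise. Prl7a1, at 29.4 CPM ± 75.3 in WT and 73.5 CPM ± 83.5 in matKO, changed by 2.17 and did not pass (adjusted p = 0.19). Its WT mean rests on WT female 3, which had 242 CPM. Prl6a1 (1.85, adjusted p = 0.29), Prl2c3 (1.32, adjusted p = 0.47) and Prl2a1 (0.25, adjusted p = 0.93) were not called either.

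**Figure D4:**
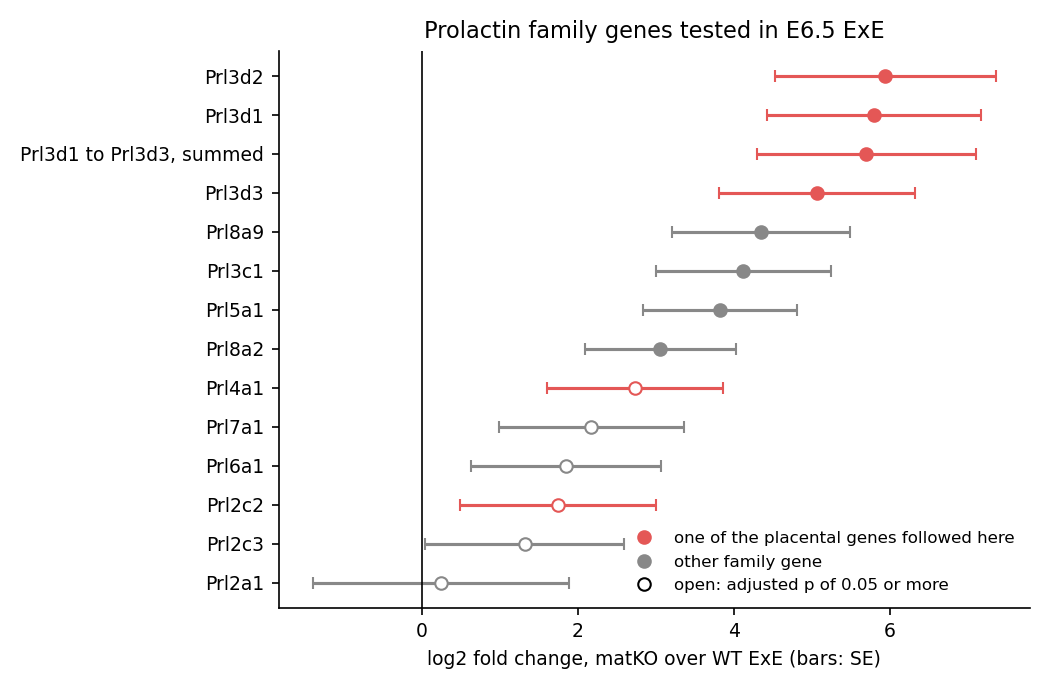
Log2 fold changes, matKO over WT ExE, of the prolactin family genes tested, with bars of 1 SE; red marks the members, grey the other genes of the family, and open points missed an adjusted p of 0.05. The Prl3d genes have the highest values (5.07 to 5.95), and all 4 other called genes lie between 3.06 and 4.35.

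Prl8a9 was the other family gene that could be tested in blastocysts, and it was higher in matKO. It had counts in 3 of 14 WT and 12 of 14 matKO samples, so it passed the filter on low counts through matKO alone. A fall could hardly have shown, and its direction is no separate support. Its WT mean was 0.0921 CPM ± 0.210 (SD, n = 14) and its matKO mean 3.05 CPM ± 2.26 (SD, n = 14), with 12 of 14 matKO samples above every WT sample (log2 fold change 5.87 ± 1.02 SE, adjusted p = 5.2e-04, edgeR). Unlike those of Prl3b1, its levels were not lower under D405T: the 6 matKO samples there had 2.55 to 6.18 CPM and the 8 under D707T had 0 to 6.23 CPM. In oocytes, Prl8a2 was at 6.47, 15.8 and 36.7 CPM in WT and at 4.46, 0, 4.599 and 19.4 CPM in matKO females 1 to 4. Prl7d1, which encodes proliferin-related protein, was at 3.96 to 5.92 CPM in WT and 1.53 to 3.10 CPM in matKO oocytes. Of the family genes tested in oocytes, Prl8a2 (log2 fold change -1.43, adjusted p = 0.87), Prl7d1 (-1.02, adjusted p = 0.81), Prl2a1 (1.21, adjusted p = 0.91) and Prl2c5 (-1.19, adjusted p = 0.88), none was called by edgeR (smallest unadjusted p = 0.071), and 0.0202% of all genes were. In 2-cell embryos, where 0.731% of genes were called (0.31% higher, 0.421% lower), Prl8a2 averaged 11.3 CPM ± 10.97 (SD, n = 11) and 13.0 CPM ± 13.98 (SD, n = 12) and was not called (0.17, adjusted p = 0.95).

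On the receptor side of the pathway, calls were near the share over all genes. Of 10 genes of prolactin receptor signalling tested in ExE, 1 was called higher and none lower, where 14.1% of all genes were called higher and 10.7% lower. Their median log2 fold change was 0.21, and -0.07 over all genes. Prlr, the prolactin receptor gene, stood at 5.85 CPM ± 4.42 in WT and 4.72 CPM ± 4.05 in matKO (-0.01, adjusted p = 0.99). Jak2 (0.10, adjusted p = 0.82), Stat5a (0.47, adjusted p = 0.37) and Stat5b (-0.28, adjusted p = 0.52) did not pass the test either, and these 4 genes were picked for their place in the pathway after their values were seen. Socs3, a feedback inhibitor of JAK-STAT signalling that responds to many cytokines, rose by 2.50 (adjusted p = 0.0078), from 1.45 CPM ± 1.503 to 7.59 CPM ± 10.05. In blastocysts, where 8 of the genes were tested, Socs3 fell by 1.82 (adjusted p = 0.024) and no other was called. Of all genes tested there, 3.55% were called lower and 2.75% higher.

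Genes of the cell types that express these hormones were counted alongside, to be read against the 14.1% of all ExE genes called higher and the 10.7% called lower. All gene lists used here were chosen with earlier results of these data known. Their counts describe these samples and are no independent support. In ExE, 8 of 10 ectoplacental cone genes were tested, of which 5 rose and 1 fell (median 1.20). Ascl2 was not called (1.00, adjusted p = 0.29, edgeR). Of the genes not tested, Tpbpb had no count in any ExE sample and Tpbpa did not pass the filter on low counts. Plet1, a trophoblast progenitor surface gene, rose by 3.80 (adjusted p = 0.0043), Phlda2, an imprinted growth restrainer of the placenta, by 2.16 (adjusted p = 0.0090), and Cdkn1c, an imprinted cell cycle inhibitor, by 1.40 (adjusted p = 0.0013). The gap junction gene Gjb2 fell by 1.24 (adjusted p = 0.0090). Of 11 giant cell genes tested among 15 listed, 3 rose and none fell (median 0.65): Hand1, a transcription factor that drives giant cell formation, by 2.54 (adjusted p = 0.0022), and the pregnancy-specific glycoprotein genes Psg29 by 3.26 (adjusted p = 0.026) and Psg22 by 3.07 (adjusted p = 0.042). The later giant cell proteases Cts6, Ctsq, Ctsj and Ctsm had no count in any ExE sample. Among 12 trophoblast stem cell genes, 1 rose and 1 fell (median -0.38).

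Markers of maternal tissue moved in the same direction. Of 15 decidua and uterine stroma genes tested in ExE, 6 rose and none fell (median 2.18, with 14.1% of all genes called higher), and their summed level was 55.3 to 363 CPM in WT and 103 to 1076 CPM in matKO ExE. Of 7 maternal blood and immune genes tested, 5 rose and none fell (median 3.59), with sums of 2.94 to 43.2 CPM and 8.06 to 358 CPM. The genes that rose were Cd68, Nkg7 and the globin genes Hba-a1, Hba-a2 and Hbb-bs, and the globin genes are not separate results. No decidua gene was at 0 in every ExE sample. Prl8a2 is known from decidua as well as trophoblast, and the part of maternal tissue in the family's changes was not tested. In blastocysts, which were collected before implantation, 4 decidua genes could be tested and none was called by edgeR, though Wnt6 and Cryab, both at lower values in matKO, had unadjusted p of 0.012 and 0.017. There, 5 of 10 trophectoderm genes fell and none rose (median -0.78 beside -0.03 over all genes, of which 3.55% were called lower and 2.75% higher), among the giant cell genes Gata2 fell by 2.83 (adjusted p = 2.6e-04), and among the ectoplacental cone genes Ets2 fell by 3.30 (adjusted p = 2.6e-04).

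Across samples of a genotype, the summed Prl3d level was set against the mean log2(CPM + 1) of 4 of these lists, which gave 8 relations. In the 8 matKO samples Pearson's r was 0.80 with the giant cell list (exact permutation p = 0.014, adjusted p = 0.099; Spearman's rho 0.83, exact permutation p = 0.015, adjusted p = 0.12). With the ectoplacental cone list r was 0.76 (exact permutation p = 0.025, adjusted p = 0.099; rho 0.76, exact permutation p = 0.037, adjusted p = 0.15). Without the 2 samples farthest from the median of the list, r was 0.60 and 0.64 (exact permutation p = 0.19 and 0.16), so that these relations rest on few samples. With the decidua list r was 0.05 (rho 0.19) and with the stem cell list -0.28 (rho -0.29), for exact permutation p of 0.91 (rho 0.66) and 0.50 (rho 0.50). In the 10 WT samples r was 0.45 (giant cell), 0.40 (ectoplacental cone), 0.36 (decidua) and -0.03 (stem cell), with rho of 0.09, 0.33, 0.24 and -0.12 and permutation p between 0.18 and 0.93. No relation passed the adjustment.

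**Figure D5:**
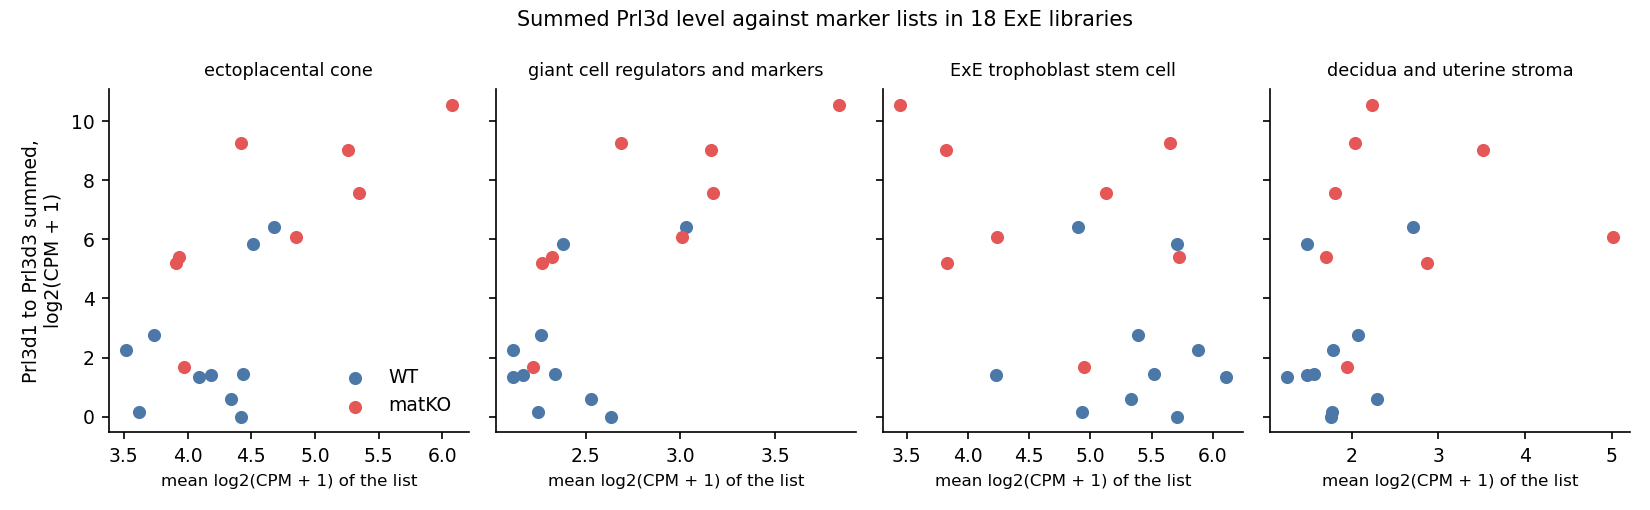
Summed Prl3d level, log2(CPM + 1), against the mean log2(CPM + 1) of 4 marker lists in the 18 ExE samples; blue is WT and red is matKO. Within matKO, r was 0.80 for the giant cell list, 0.76 for the ectoplacental cone, -0.28 for stem cell genes and 0.05 for decidua, none past the adjustment, and single samples depart from the order.

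By Spearman correlation over all 18 ExE samples, the genes whose pattern was most like that of summed Prl3d, among the 9565 that averaged 5 CPM or more, were Ceacam15 (0.94), Ecm1 (0.94), Plet1 (0.94), Entpd1 (0.93) and Il24 (0.93). Within WT these values were 0.87, 0.92, 0.79, 0.77 and 0.70, and within matKO 0.86, 0.81, 0.98, 0.90 and 0.90. All genes of a sample share its library, depth and genotype, and the values are descriptions. A like ranking for Prl3b1 over the 28 blastocysts, added after its values were seen, was led among 8918 genes by Plk5 (0.94), Timd2 (0.94), Gulo (0.92), Gm5612 (0.92) and Ccne1 (0.92), a cyclin of giant cell endocycles that was also on the giant cell list. Within D405T these were 0.92, 0.93, 0.80, 0.92 and 0.86, and within D707T 0.62, 0.76, 0.76, 0.73 and 0.63.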

How the data were processed

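Polyadenylated RNA was sequenced from 76 single samples at 4 stages. The authors deposited raw counts per gene, 1 table per stage. Trim Galore, STAR, SAMtools, featureCounts and mm10 are named in the submitters' processing notes, without versions; the sources used here give no strand setting, annotation release or treatment of reads matching several places. Libraries were made with a dual-indexing DNA kit, per the labels' protocols. A further 8 columns matched no sample and were not used. No libraries of a group agreed within sampling noise (lowest chi-square per degree of freedom 10.1, at a minimum of 20 counts per gene and pair).

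The members and gene lists were chosen with earlier results of these data known. Each stage was fitted with edgeR 4.0.16 (R 4.3.3): filterByExpr with a minimum count of 10, TMM, estimateDisp and glmQLFit, both robust, and legacy=TRUE, then glmQLFTest, with Benjamini-Hochberg adjustment over all genes of the stage (14838 in oocytes, 14506 in 2-cell embryos, 13445 in blastocysts, 14156 in ExE) and a threshold of 0.05. Sex was a term, and in blastocysts also the identifier prefix. Counts of Prl3d1 to Prl3d3 were summed before the fit of the sum. The newer edgeR fit (legacy=FALSE, without estimateDisp) is given beside it. Printed CPM are counts over library totals, without TMM. Permutation tests used log2(CPM + 1) with scipy 1.17.1.

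Named genes were the members; other family genes that averaged 1 CPM or more in a group; the called genes, at most 4 by p, of each of the receptor, ectoplacental cone and giant cell lists per stage; and the 5 genes most like summed Prl3d. A few other genes were named after their values were seen. Sequence identity and 50-base windows came from GENCODE transcripts of GRCm38, aligned with Biopython 1.88. Replicate numbers gave no consistent pairing of samples and entered no main fit. Alternatives were DESeq2 1.42.0, other scalings, no filter, other covariates, each prefix alone, other pseudocounts and leaving out each library.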

Additional observations from a re-analysis of the deposited data

Results flagged for a closer look

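Of 20 groups of 4 to 10 samples checked for a sample apart from the others, 5 had such a sample; at the rule's nominal rate, chance flags about 1 in 20 groups, and that rate was not checked for low values with many zeros such as these. Prl2c2 stood at 15.0 CPM in WT ExE female 3, where the next of 6 females had 0.108 CPM. The same sample had 9.13 CPM of Prl4a1, with the next female at 1.29 CPM. In matKO ExE female 1, Prl4a1 was at 27.04 CPM and the next of 5 females at 7.80 CPM. Prl3d2 was at 1.31 CPM in WT ExE male 4, with the next of 4 males at 0.217 CPM. Prl3b1 was at 14.5 CPM in WT blastocyst male 5, with the next of 8 males at 5.62 CPM.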

How the results depend on the processing

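Under other settings, 144 values kept their direction and their side of the threshold or stayed within 1.5 times, 5 lost the call, 2 gained it, 9 moved and 2 changed sign; leaving out single libraries gave 192, 0, 4, 16 and 0. The summed Prl3d change in ExE was called with edgeR's newer fit, DESeq2 (adjusted p = 1.2e-05), RLE scaling, library totals, no filter and no sex term. Leaving out single libraries gave 4.40 (without matKO male 2) to 6.29 (without WT female 3), with adjusted p from 0.0062 to 0.028. Prl3b1 in blastocysts ran from 2.28 (without matKO male 3) to 3.62 (without WT female 1), with adjusted p from 3.0e-04 to 0.037. It was 3.74 within D405T (SE 1.32, adjusted p = 0.10; 2.51 with SE 0.44 within D707T), for which the cause was not tested, and 3.34 without the prefix term (adjusted p = 0.020). The newer fit gave 4.84 for summed Prl3d in females (adjusted p = 0.042) and called Prl4a1 in ExE (2.79, adjusted p = 0.040).

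With the replicate block, the change in ExE was 7.33 for summed Prl3d (adjusted p = 0.074), 6.94 for Prl3d1 (0.064), 7.30 for Prl3d2 (0.063) and 6.44 for Prl3d3 (0.097), none called, and 3.63 for Prl3b1 in blastocysts (adjusted p = 0.020). The numbers gave no consistent pairing of samples. Same-numbered samples deviated together (r over 0.1) in 2 of 3 oocyte, 3 of 11 2-cell, 9 of 13 blastocyst and 1 of 8 ExE pairs. A sample was best matched by its own number in 1, 3, 4 and 1. For blastocysts a partial pairing thus remains possible, and its source was not tested.

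The genes called numbered 3 in oocytes (32 with DESeq2, 1 with the replicate block), 106 in 2-cell embryos (454 with the newer fit, 651 with DESeq2, 14 with the block) and 847 in blastocysts (1796, 1336 and 427, and 140 within D707T). Without single libraries they numbered 52 to 256 in 2-cell embryos and at least 1 in oocytes (without matKO oocyte 1). Library totals alone moved the median blastocyst change of all genes from -0.03 to -0.13 and the calls from 370 higher and 477 lower to 209 and 684. Without the 2 farthest samples, r with summed Prl3d turned to -0.090 for decidua in WT and to 0.091 for stem cell genes in matKO. Depth limits what single 2-cell libraries can show, with totals as low as 1.05 M counts. Over all libraries of a stage, no count allows a level of up to 0.0233 CPM in 2-cell embryos and 0.0324 CPM in oocytes (3 counts, counting error only).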
